A study of Arabidopsis thaliana with 3 samples.

Results

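Nitrate uptake and reduction in sorted root cells was followed through 5 genes, chosen by a rule that names them and uses no measured value, out of 22746 plant probe sets on the array. They were the transporters NRT1.1 (locus AT1G12110, probe set 264348_at) and NRT2.1 (AT1G08090, 260623_at), the nitrate reductases NIA1 (AT1G77760, 259681_at) and NIA2 (AT1G37130, 261979_at), and the nitrite reductase NIR1 (AT2G15620, 265475_at). All 5 had a value on every array. The pairing of these probe sets with their genes came with the choice of probe sets. The array's annotation table used here names the genes of 14016 probe sets and lists 0 of the 5, so the pairing was not checked against it.

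The series consists of 1 group of 3 arrays, 1 for each biological replicate, of mature endodermis from roots of wild type Columbia seedlings of Arabidopsis thaliana aged 6 days. The seedlings carried a green fluorescent protein marker, named in the series text as E30. They stood on Murashige and Skoog salts at 1X strength with 1% sucrose, at 22 °C in days of 16 h of light and nights of 8 h, and this medium supplies both nitrate and ammonium. Root tips of about 1 cm were digested to protoplasts, fluorescent cells were sorted, and their RNA was labelled after amplification in 2 cycles. The arrays were meant to stand beside published profiles of other root cell types. Those were not analysed here, and with 1 group no comparison between cell types, genotypes or nitrogen supplies was possible. How plants were divided among replicates is unstated in the sources used here, so every p-value below refers to these 3 arrays. The test takes the spread of a gene between arrays in part from all plant probe sets.

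Plant roots take up nitrate with proton-coupled transporters of a low-affinity and a high-affinity kind. In the cytosol nitrate reductase, an enzyme with a molybdenum cofactor, reduces nitrate to nitrite. In the plastid nitrite reductase reduces nitrite to ammonium, which is then built into glutamine. The endodermis is the cell layer around the vascular cylinder, which solutes must cross or enter on their way to the xylem.

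The values were linear probe set signals, and their scaling target is unstated in the sources used here. The median signal of the plant probe sets was 55.1, 53.3 and 64.7 in replicates 1, 2 and 3. A reference level was taken in each array as the 90th percentile of 27 control probe sets for genes of Bacillus subtilis, which are foreign to the plant. In replicates 1, 2 and 3 it stood at signals of 14.2, 13.1 and 12.3. The 3′ ends of actin, GAPDH and ubiquitin gave between 2.24 and 17.1 times the signal of their 5′ ends. In replicates 1, 2 and 3, 1 actin pair gave 16.5, 10.7 and 9.26 and another 9.45, 10.5 and 11.7. The GAPDH pairs gave 17.1, 12.7 and 12.0, and 3.26, 3.11 and 2.24. Those of ubiquitin gave 5.81, 5.54 and 5.62, and 3.44, 3.43 and 3.72. Of 24 marker genes of root cell types, 3 could be matched to a probe set. SGN3, a receptor kinase of the Casparian strip (GSO1 in RefSeq), had signals of 3421, 5068 and 5823. EXP7, an expansin of root hair cells (EXPA7 in RefSeq), had 18.0, 71.5 and 192 in replicates 1, 2 and 3. CO2, a gene used as a marker of the cortex, had 12.2, 28.7 and 10.6. With 1 of 10 endodermis markers matched, the label of the cells was not checked further, and the 7 markers of the stele were not matched.

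Of the 5 genes, 4 lay above the reference level: NRT2.1, NIA1, NIA2 and NIR1, by 4.02-fold to 63.8-fold. NRT1.1 did not pass the test, with a signal well above the reference level in 1 array and below it in another. The test was limma's moderated test of the log2 signal minus the reference level against 0 (two-sided, n = 3), with Benjamini-Hochberg adjustment over all plant probe sets and a threshold of 0.05. In that test 69.1% of plant probe sets were above the reference level and 11.1% below it, so 4 of 5 is near the share of the array as a whole. The same 4 genes lay above it in each of the 3 arrays taken singly, as did 71.7% of plant probe sets. Of the 3 matched markers, SGN3 and EXP7 also passed above it (adjusted p = 3.57e-05 and 0.0331 in limma's test). CO2 did not pass (adjusted p = 0.579 in limma's test). The median log2 difference was 2.64 over the 5 genes and 2.105 over all plant probe sets. The signal on the log2 scale depends on the probes as well as on the transcript. Levels are therefore given gene by gene, and the signals do not rank the transcripts.

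**Figure D1:**
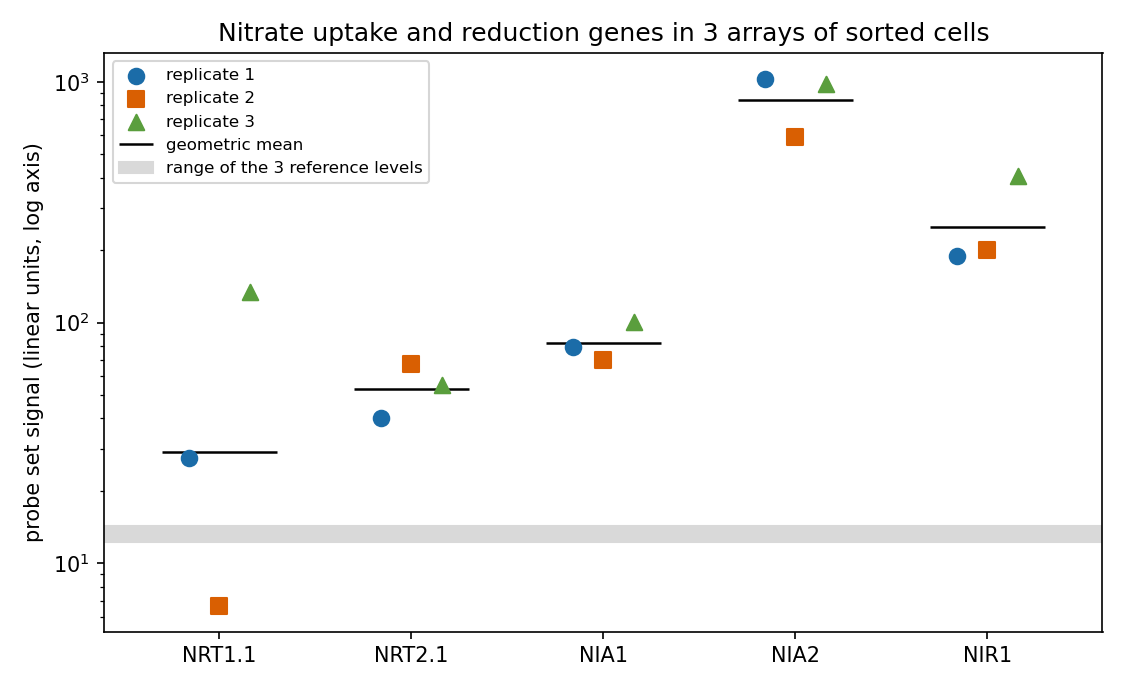
Probe set signal (linear units, log axis) of the 5 genes, with 1 point for each of the 3 arrays and a bar for the geometric mean. The grey band spans the reference levels of the arrays, 12.3 to 14.2. NRT1.1 lies below the band in replicate 2 with a signal of 6.68, while the other 4 genes lie above it in all 3 arrays.

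NRT1.1, a nitrate transporter of dual affinity that also acts as a nitrate sensor, had signals of 27.4, 6.68 and 134.5 in replicates 1, 2 and 3. With replicate 2 set to its reference level, since its signal lay below it, replicate 3 was 10.3-fold higher, a value that depends on that level. Against the reference level of the same array, replicate 1 was 1.92-fold, replicate 2 0.512-fold and replicate 3 10.9-fold, so 2 of 3 arrays lay above it. Counted from the brightest plant probe set, its rank was 15122, 19355 and 7518. That is, 33.5%, 14.9% and 66.9% of plant probe sets had a lower signal in replicates 1, 2 and 3. Its mean log2 difference from the reference level was 1.14 ± 0.85 (SE, n = 3) with a 95% interval of -1.07 to 3.35 (adjusted p = 0.266 in limma's test). The interval holds both a level below the reference and one several times above it. Without replicate 2 the log2 difference was 2.198 (adjusted p = 0.0256 in limma's test), and without replicate 3 it was -0.011 (adjusted p = 0.987), so single arrays decided this value. With the 75th percentile of those control probe sets as the reference it was 1.82 (adjusted p = 0.0011 in limma's test), in a fit that assigned the same standard error to every probe set.

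NRT2.1, the main inducible high-affinity nitrate transporter of the root in Arabidopsis, had signals of 40.1, 67.1 and 55.1 in replicates 1, 2 and 3, a mean of 54.1 ± 13.5 (SD, n = 3). Each array lay above its reference level, by 2.82-fold, 5.14-fold and 4.48-fold. It ranked 13159, 10215 and 12277, with 42.1%, 55.1% and 46.0% of plant probe sets below it, close to the middle of the array. Its log2 difference from the reference level was 2.01 ± 0.27 (SE, n = 3, adjusted p = 0.00141 in limma's test). With the highest Bacillus probe set as the reference the difference was 1.201 and missed the threshold (adjusted p = 0.0548 in limma's test). In the RefSeq annotation the next protein-coding gene to NRT2.1 is NRT2.2, a paralog of it. Whether probe set 260623_at also detects NRT2.2 was not tested.

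NIA1, the isoform of nitrate reductase known for the smaller share of the activity in Arabidopsis seedlings, had signals of 79.0, 70.1 and 100.5 in replicates 1, 2 and 3, a mean of 83.2 ± 15.6 (SD, n = 3). The arrays lay 5.54-fold, 5.37-fold and 8.17-fold above their reference levels. Of plant probe sets, 58.8%, 56.0% and 60.5% had a lower signal, at ranks 9361, 9999 and 8982. The log2 difference from the reference level was 2.64 ± 0.24 (SE, n = 3, adjusted p = 0.000352 in limma's test). The level of NIA1 was thus a little above the middle of the array in each replicate.

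NIA2, the isoform known for most of the nitrate reductase activity of seedlings, had signals of 1025, 591 and 980 in replicates 1, 2 and 3, a mean of 865 ± 239 (SD, n = 3). It lay 72.0-fold, 45.3-fold and 79.7-fold above the reference level. Its ranks were 1312, 2300 and 1317, with 94.2%, 89.9% and 94.2% of plant probe sets below it. Replicates 1 and 3 were nearly equal and replicate 2 was lower. The log2 difference from the reference level was 6.00 ± 0.26 (SE, n = 3, adjusted p = 4.43e-05 in limma's test). NIA1 and NIA2 are paralogs, and whether either probe set detects transcripts of the other gene was not tested.

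NIR1, the nitrite reductase of the plastid, had signals of 189, 199.6 and 407 in replicates 1, 2 and 3, a mean of 265 ± 123 (SD, n = 3). The arrays lay 13.3-fold, 15.3-fold and 33.1-fold above their reference levels. Of plant probe sets, 76.5%, 76.5% and 85.9% had a lower signal, at ranks 5352, 5356 and 3200. Replicates 1 and 2 differed by 1.06-fold, whereas replicate 3 was 2.04 times replicate 2. The log2 difference from the reference level was 4.24 ± 0.34 (SE, n = 3, adjusted p = 0.000214 in limma's test).

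The 5 genes did not share 1 order of the arrays. NRT1.1, NIA1 and NIR1 were highest in replicate 3, NRT2.1 in replicate 2 and NIA2 in replicate 1. Replicate 2 was lowest for NRT1.1, NIA1 and NIA2, and replicate 1 for NRT2.1 and NIR1. After quantile normalization the lowest array of NIR1 was replicate 2, at 202.9 against 203.2 in replicate 1, and the other orders of highest and lowest array were unchanged. Over all plant probe sets, replicate 3 was the highest array in 43.0%, replicate 1 the lowest in 38.8% and replicate 2 the lowest in 37.0%. Replicate 3 departed from the mean of the arrays by 2.21 (log2) for NRT1.1 and by 0.71 for NIR1. For comparison, plant probe sets were divided by mean level into 10 classes of nearly equal size. The median deviation of replicate 3 was 0.20 in the class of NRT1.1 and 0.05 in that of NIR1. NIA1, at 0.29, was nearer to the median of its class, 0.17. NIA2 deviated by -0.51 in replicate 2, where its class had a median of 0.07. The markers EXP7 and SGN3 were also highest in replicate 3 and lowest in replicate 1, the order of NIR1 in the signals as deposited. SGN3 is the matched marker of the endodermis, so this order was not particular to the root hair marker. CO2, the cortex marker, was highest in replicate 2 and lowest in replicate 3. NRT1.1 and NIA1 were instead lowest in replicate 2. In replicate 3 the control probe sets of actin, GAPDH and ubiquitin had medians of 0.31, 0.19 and -0.20 on the same scale. The part of root hair cells or of RNA quality in these differences was not tested.

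**Figure D2:**
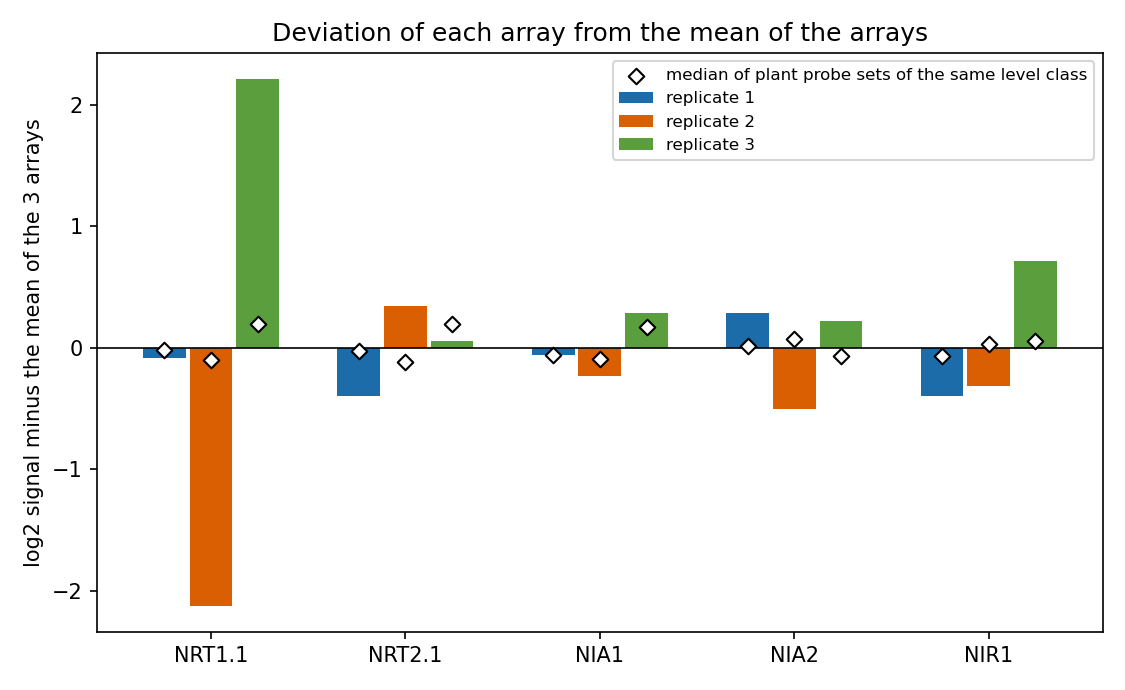
Log2 signal of each gene in each of the 3 arrays minus the mean of the arrays. Bars are the arrays and diamonds the median of plant probe sets in the same class of level. NRT1.1 reaches -2.12 in replicate 2 and 2.21 in replicate 3, far outside the medians, while the bars of NIA1 stay between -0.23 and 0.29.

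The spread between replicates was ordinary for NRT2.1 and NIA1 and wider for the others. On the log2 scale the SD over the 3 arrays was 2.17 for NRT1.1, 0.38 for NRT2.1, 0.26 for NIA1, 0.44 for NIA2 and 0.62 for NIR1. Set against the median SD of the class of level, this was 5.10 times for NRT1.1, 2.14 times for NIR1, 1.64 times for NIA2, 1.02 times for NRT2.1 and 0.794 times for NIA1. NRT2.1 and NIA1 lay between the quartiles of their classes, and the other 3 above the upper quartile. The root hair marker EXP7 had an SD of 1.71, or 5.15 times the median of its class. For SGN3 the SD was 1.48 times and for CO2 1.17 times the median of the class. Of the 2275 probe sets in the class of NRT1.1, 6 had a larger SD. Its value in replicate 2 lay below the reference level. When every signal below the reference level was set to that level, a setting chosen after seeing the data, the SD of NRT1.1 was 1.72 against a class median of 0.43, and 2 of 2275 were larger. With log2(signal + 16) it was 1.39. In the class of NIR1 it was 204 of 2275, and in that of NIA2 437 of 2275. A range of more than 2-fold over the arrays was seen for 2 of the 5 genes, NRT1.1 and NIR1, and for 36.5% of all plant probe sets. After quantile normalization, which gives the arrays 1 common distribution, NRT1.1 had signals of 28.6, 7.27 and 121.8. Replicate 3 was then 8.60-fold above the reference level of replicate 2. NIR1 then ranged over 1.94-fold. Over the 2 arrays left without replicate 3 the SD of NIR1 was 0.05, and without replicate 2 that of NIA2 was 0.05. That of NRT1.1 was 1.44 without replicate 3 and 3.06 without replicate 1. That of NIA1 was 0.12 without replicate 3, and that of NRT2.1 0.20 without replicate 1.

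**Figure D3:**
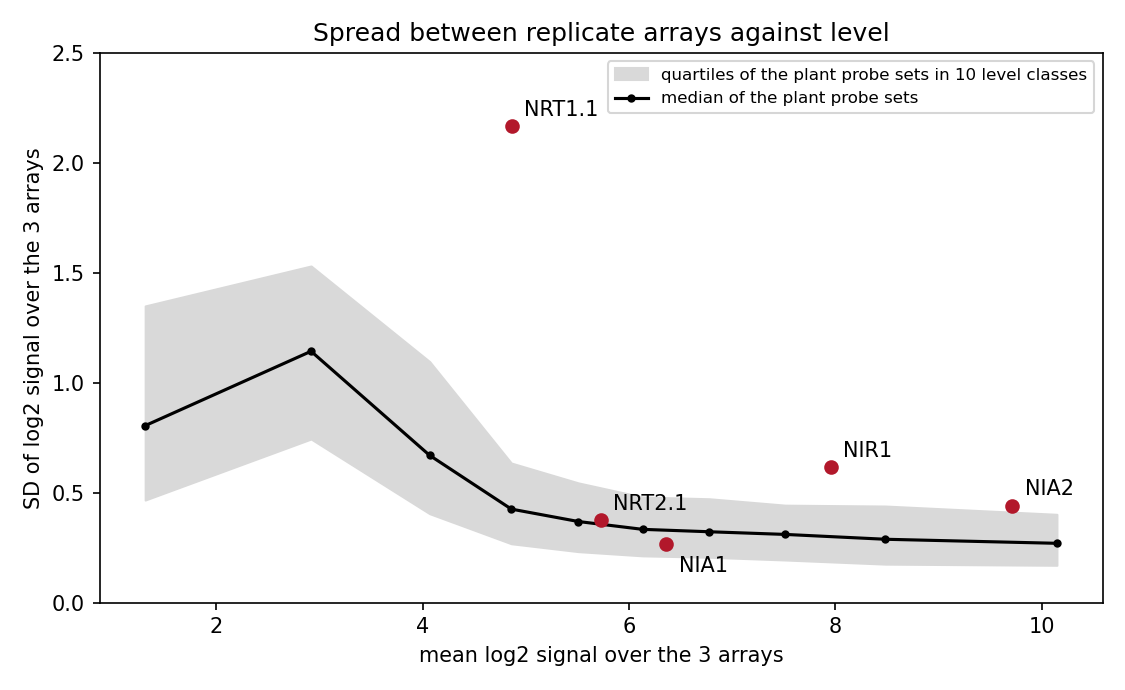
SD of log2 signal over the 3 arrays (vertical axis) against mean log2 signal (horizontal axis). The line and grey band are the median and quartiles of plant probe sets in 10 classes of level. NRT1.1, at an SD of 2.17, stands far above the band. NIR1, at 0.62, lies above the band, NIA2 lies just above it, and NRT2.1 and NIA1 lie inside it.

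Of 81 other genes of nitrate transport, nitrate signalling, cofactor supply and ammonium assimilation, 8 could be matched to a probe set of their own through the annotation table. Of these 8, 6 lay above the reference level, 0 below it and 2 passed in neither direction. The 69.1% of all plant probe sets is again the figure to read this against. The median log2 difference of the 8 was 3.54, against 2.105 over all plant probe sets. Single genes ran from -1.03 for NRT1.3 to 6.73 for HHO3, so the median describes a mixed set. None of the 21 listed genes of ammonium assimilation and transport was matched.

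Of 3 matched nitrate transporters, 1 lay above the reference level, against 69.1% of all plant probe sets. These 3 genes are too few to set apart from that share. NRT1.4, a transporter known for nitrate storage in the leaf petiole, had signals of 564, 538 and 310 in replicates 1, 2 and 3. Its log2 difference from the reference level was 5.11 ± 0.25 (SE, n = 3, adjusted p = 5.60e-05 in limma's test). Its array order was not that of NRT1.1, a member of the same family, since replicate 3 was its lowest array. NRT2.5, a high-affinity transporter known from nitrogen-starved plants, had 30.1, 7.49 and 21.7 and did not pass (0.37 ± 0.43, adjusted p = 0.468 in limma's test). Leaving out replicate 1 gave 0.0082 (adjusted p = 0.989 in limma's test), and leaving out replicate 2 gave 0.95 (adjusted p = 0.0501). Like NRT1.1 it was below the reference level in replicate 2. NRT1.3 lay below the reference level in each array with signals of 8.24, 3.16 and 10.3, yet its difference of -1.03 ± 0.40 missed the threshold (adjusted p = 0.0634 in limma's test).

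All 4 matched regulators of the nitrate response lay above the reference level, against 69.1% of all plant probe sets, and 4 genes are too few to set apart from that share. HHO1, HHO2 and HHO3 are repressors of the GARP family that nitrate is known to induce. HHO3 had signals of 1778, 1182 and 1296, and HHO2 had 1068, 759 and 753, with log2 differences of 6.73 ± 0.22 and 6.01 ± 0.22 (SE, n = 3, adjusted p = 3.59e-05 and 3.65e-05 in limma's test). HHO1 had 37.2, 37.3 and 84.3, and its difference of 1.89 ± 0.35 (adjusted p = 0.00514 in limma's test) was lost with the highest Bacillus probe set as the reference (1.09, adjusted p = 0.0837). NRG2, a positive regulator of nitrate signalling known to promote NRT1.1 expression, had 118.5, 122.9 and 171. CNX6, a subunit of the enzyme that makes molybdopterin for nitrate reductase, had 191, 209.6 and 131.9. NRG2 and CNX6 passed with log2 differences of 3.36 ± 0.25 and 3.72 ± 0.23 (SE, n = 3, adjusted p = 0.000179 and 0.000104 in limma's test).

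**Figure D4:**
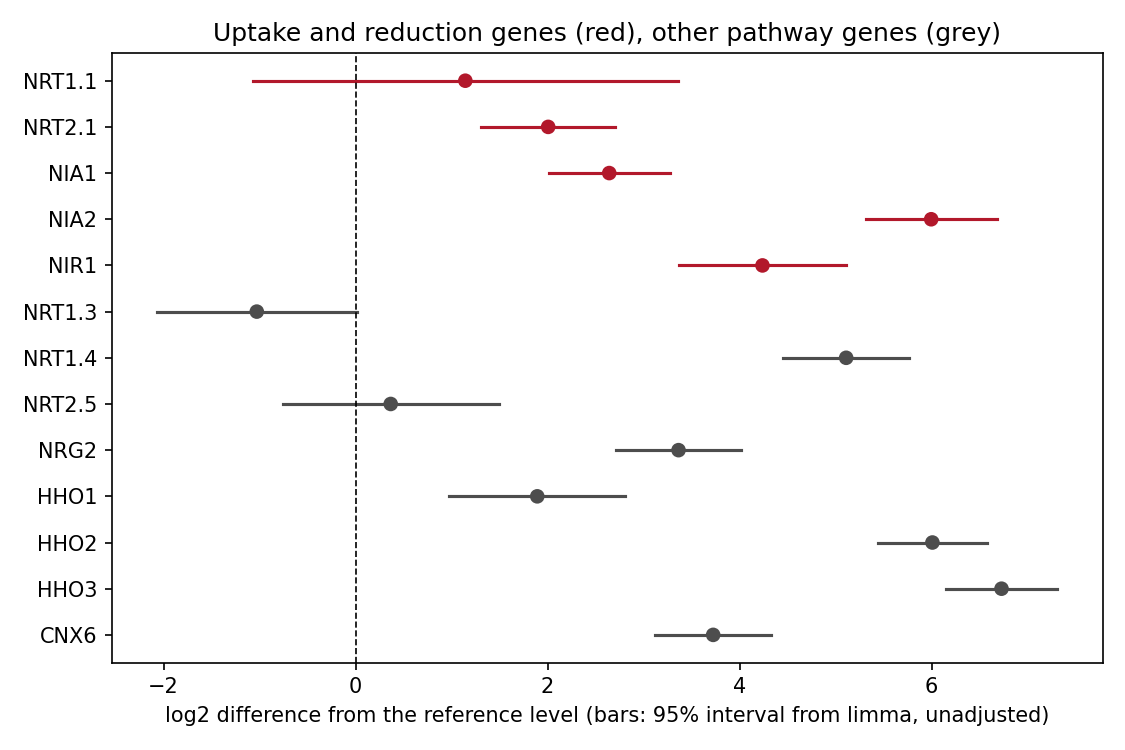
Mean log2 difference from the reference level with its unadjusted 95% interval from limma (n = 3 arrays) for the 5 uptake and reduction genes (red) and the 8 other pathway genes matched to a probe set (grey). The intervals of NRT1.1, NRT1.3 and NRT2.5 include 0, and those of the other 10 genes lie above it.

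The probe set with the most similar signals over the 3 arrays was sought for each gene among 13513 probe sets that the annotation table assigns to 1 gene. Likeness was the root mean square of the log2 differences, which covers level and array order together. The level depends on the probes, and the best of so many candidates is close by choice. For NRT2.1 it was SEU, a transcriptional co-regulator, at 0.07 with signals of 38.4, 67.0 and 59.2. For NIA1 it was AT3G26770 at 0.02, for NIR1 AT5G20050 at 0.09 and for NIA2 AT1G21000 at 0.11. For NRT1.1 it was AT5G43520 at 0.50 with signals of 21.4, 9.07 and 85.4, and both probe sets lay below the reference level in replicate 2. With 3 arrays of 1 group, such likeness describes these arrays alone.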

How the data were processed

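Signal intensities of 22810 probe sets on 3 arrays were used as the authors deposited them, 1 column per array. Per the submitters' processing notes MAS5 was used, while its scaling target and detection calls are unstated in the sources used here. All intensities were above 0, so no pseudocount was needed. The 64 control probe sets were left out of ranks and tests. For 22746 plant probe sets, log2 intensity minus the reference level was fitted with limma 3.58.1 in R 4.3.3 (intercept, eBayes). The number of arrays limits the precision, and error of the reference level over its 27 probe sets does not enter the test. The 5 genes, the pathway and marker lists and the reference level were chosen with earlier results of these data known, although the rule for the 5 genes uses no measured value. Named genes were those 5, the list genes with a probe set of their own and the nearest probe set to each of the 5. Of 14016 probe sets in the annotation table, 13513 had 1 gene and 503 several. Names were updated through RefSeq (TAIR10.1), with no coordinates printed since no build is named for the array. No sequences are shown, since none were in the sources used here. Alternatives were other reference levels, quantile normalization, log2(signal + 16), an eBayes trend, only probe sets ending in plain _at, a filter on low values and leaving out each array. Setting signals below the reference level to that level was added after seeing the data. For the pathway lists and the count below the reference level they were added after seeing the data.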

Additional observations from a re-analysis of the deposited data

How the results depend on the processing

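The count of uptake and reduction genes above the reference level was 4 of 5. Over the alternatives it ran from 3 (highest Bacillus probe set) to 5 (75th percentile, and without replicate 2). The share of all plant probe sets above it was 51.2%, 74% and 67.3% in those settings. Under the filter that keeps only means above the reference level it was 90.4% of 17842 probe sets, a share that the filter itself raises. NIA1, NIA2 and NIR1 passed in all 12 alternatives. NRT1.1 changed sign without replicate 3 (-0.011) and reached 2.198 without replicate 2. NRT2.5 changed sign over the 95th percentile (-0.047) and the highest Bacillus probe set (-0.44). NRT1.3 passed below the reference level with those references (-1.44 and -1.83) and without replicate 3 (-1.42). With the 75th percentile or the highest Bacillus probe set, limma gave all probe sets 1 standard error. The count of plant probe sets below the reference level, 2533, became 4075 with the highest Bacillus probe set and 0 under the filter that keeps only means above that level, which holds by construction. The pathway count of 6 ran from 5 to 6. The median percent of probe sets with a lower signal, 58.5, ran from 57.4 to 59.7 with 1 array left out, and the median SD, 0.44, from 0.32 to 0.53. With quantile normalization the SD of NIA1 became 0.14, and with log2(signal + 16) that of NRT1.1 became 1.39. The cause of these changes was not tested. NRT1.3 drops out under the filter on means and has no value there. NRT1.1, NRT1.3 and NRT2.5 each lay below the reference level in at least 1 array. No paired analysis was possible because all arrays belong to 1 group.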
